A study of Homo sapiens with 6 samples.

Results

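The transcription factors that establish and maintain the erythroid program were examined in the RNA-seq libraries of cells carrying S34F mutant or wild-type U2AF1. The group holds 10 of the 31142 genes in the deposited expression table, namely GATA1, KLF1, TAL1, NFE2, GFI1B, LMO2, ZFPM1, LDB1, BCL11A and MYB. They were taken by gene symbol, and each symbol had 1 identifier in the table. The set was chosen by textbook role with their mean FPKM in the same libraries already known, so the levels count as used in the choice and are given as a description without a test. The contrast between S34F and WT was not part of the rule.

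SKM-1 is described in the methods as an acute myeloid leukemia line of human origin that derives from a myelodysplastic syndrome (MDS), a clonal disease of blood-forming cells. U2AF1 is a splicing factor that reads the 3′ splice site, and S34F is a recurrent substitution in it. Total RNA was sequenced from 3 samples titled as SKM-1 with U2AF1-S34F and 3 titled as SKM-1 with U2AF1-WT, all at 96 h. According to the methods, both forms carried a FLAG tag and came from a lentiviral vector with a ubiquitin promoter, a green fluorescent protein and puromycin resistance, and cells were selected with puromycin. By their titles both groups would share the vector and the selection, and the line has U2AF1 of its own. The WT titles also carry the prefix NC, which elsewhere in the study stands for negative controls, and the methods speak of a vehicle control for the sequencing and of untransfected cells as negative controls elsewhere. Whether the WT libraries hold the transgene was not tested. The titles' U2AF1 form defined the groups used here. The labels do not say whether the 3 samples of a group came from separate cultures. The p-values therefore set group differences against the spread between these samples, which may be technical.

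Values are FPKM, the number of fragments divided by transcript length in kilobases and by the size of the library. Approximate depths of 20.5 to 26.1 M fragments were read from the FPKM of single-exon genes. U2AF1 ran from 9.18 to 9.48 FPKM in S34F and from 7.65 to 8.70 FPKM in WT. Gene-level values cannot tell the alleles apart, and U2AF1 may share reads with its near-identical copy U2AF1L5, at 9.18 to 9.78 FPKM in S34F and 9.22 to 10.04 FPKM in WT. The tissue label was compared with marker genes. Of the 12 erythroid markers, 11 averaged 1 FPKM or more, and the median of the 12 was 551 FPKM. Of the 19 monocytic and granulocytic markers in the table, 15 averaged less than 1 FPKM, among them CD14 at 0.197 to 0.882 FPKM, MPO, which was listed at 0 in 4 libraries, and FCN1, which was listed at 0 in 5. The 2 highest genes of that list were CD68 at 32.9 to 64.6 FPKM and LYZ at 8.52 to 23.2 FPKM. The defining myeloid markers were therefore at or near 0 in libraries labelled as an acute myeloid leukemia line, and the erythroid markers were abundant in all 6. All levels below are those of the cells in these libraries, whatever their label.

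Erythroid development is directed by a small set of factors that bind enhancers and promoters together. GATA1 and TAL1 sit side by side on DNA, and LMO2 and LDB1 bridge them into 1 complex that loops enhancers to promoters. ZFPM1 (FOG1) attaches to GATA1, KLF1 reads CACCC boxes in globin and other red cell genes, and NFE2 pairs with small MAF proteins on the globin locus control region. GFI1B and BCL11A are repressors, and MYB keeps progenitors dividing and is normally shut down as they mature.

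The GATA words in the promoters of the factors are shown because GATA1 is known to act on genes of its own network. Of the 10 genes, 8 had promoter windows in the RefSeq table (build GRCh38.p14), with 14 windows in all. NFE2 and LMO2 had none in it. The 250 bases before each start site were searched on both strands for GATA with A or T before it and A or G after it. Of all 35116 windows of that length, 22.3% held at least 1 such word, against 3 of the 14 windows of the factors. Those 3 windows belong to KLF1, TAL1 and GFI1B and are printed 5′ to 3′ in the direction of the gene, with the GATA words in capitals. A word that lies on the opposite strand reads as its reverse complement, so that TTATCT stands for AGATAA.
KLF1: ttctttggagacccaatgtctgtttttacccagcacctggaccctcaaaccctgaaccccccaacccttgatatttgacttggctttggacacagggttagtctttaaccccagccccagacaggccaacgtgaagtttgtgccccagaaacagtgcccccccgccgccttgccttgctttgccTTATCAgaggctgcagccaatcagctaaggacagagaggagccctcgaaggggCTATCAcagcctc
TAL1: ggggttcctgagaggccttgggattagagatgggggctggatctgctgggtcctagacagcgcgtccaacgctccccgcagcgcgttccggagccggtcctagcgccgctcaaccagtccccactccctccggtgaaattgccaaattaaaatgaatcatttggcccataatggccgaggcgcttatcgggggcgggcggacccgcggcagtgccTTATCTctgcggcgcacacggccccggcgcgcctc
GFI1B: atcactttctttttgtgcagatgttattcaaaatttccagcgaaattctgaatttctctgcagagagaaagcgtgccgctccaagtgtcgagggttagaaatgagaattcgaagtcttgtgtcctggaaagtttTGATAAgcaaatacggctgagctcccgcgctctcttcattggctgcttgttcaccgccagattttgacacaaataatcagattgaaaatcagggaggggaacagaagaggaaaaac
The KLF1 window lies at chr19:12887202-12887451 on the minus strand and holds 2 words, which begin 66 and 13 bases before the start. The TAL1 window lies at chr1:47232336-47232585 on the minus strand and holds 1 word, 35 bases before the start. The GFI1B window, at chr9:132978444-132978693 on the plus strand, holds 1 word at 116 bases before the start. The pattern CCNCNCCC, which covers the CACCC box that KLF1 reads, was found in 10 of the 14 windows, for all of the 8 genes but KLF1 itself, and in 53.4% of all windows. E-boxes (CANNTG), the word that TAL1 and its partners read, were found in 6 of the 14 windows and in 61.8% of all windows. The NF-E2 word TGANTCA was found in 1 of the 14 windows, of TAL1, and in 6.57% of all windows. The MYB words AACTG and AACGG were found in 5 of the 14 windows and in 45.6% of all windows, and AACTG after a C is also an E-box. These are matches of letters in short windows, not binding sites.

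Among the DNA-binding activators, GATA1 and KLF1 were the most abundant factors. GATA1 (ENSG00000102145, chromosome X of GRCh38 from 48786554 to 48794311, plus strand), the master regulator of the red cell lineage, had 201, 206 and 142 FPKM in S34F replicates 1, 2 and 3, and 193, 190.4 and 175 FPKM in WT replicates 1, 2 and 3. S34F replicate 3 was the lowest of the 6, S34F replicates 1 and 2 were the highest, and the groups overlapped. The group means were 183 ± 35.7 FPKM in S34F and 186 ± 9.50 FPKM in WT (SD, n = 3 each). GATA1 ranked 218 of 31142 genes by mean FPKM over the 6 libraries.

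KLF1 (ENSG00000105610, chromosome 19 from 12884422 to 12887199, minus strand), the activator of adult globin and many late red cell genes, had 159, 153 and 122 FPKM in S34F and 139, 138 and 139 FPKM in WT. The WT libraries were nearly level, while the S34F libraries lay on both sides of them. The means were 145 ± 19.6 FPKM in S34F and 139 ± 0.489 FPKM in WT (SD, n = 3 each), and KLF1 ranked 295.

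NFE2 (ENSG00000123405, chromosome 12 from 54292111 to 54301121, minus strand), the tissue-restricted subunit of NF-E2, had 98.2, 94.4 and 79.0 FPKM in S34F and 100.1, 95.7 and 83.7 FPKM in WT. The third replicate was lowest in both groups, and the groups overlapped over nearly their whole range. TAL1 (ENSG00000162367, chromosome 1 from 47216290 to 47232220, minus strand), the basic helix-loop-helix factor of the complex, had 22.2, 18.3 and 18.1 FPKM in S34F and 20.3, 28.1 and 17.3 FPKM in WT. WT replicate 2 stood above the other 5 libraries, and the groups overlapped. NFE2 had 90.5 ± 10.2 FPKM in S34F and 93.2 ± 8.46 FPKM in WT, and TAL1 had 19.6 ± 2.31 FPKM in S34F and 21.9 ± 5.55 FPKM in WT (SD, n = 3 each).

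The bridging and cofactor proteins covered a wider span of levels. LDB1 (ENSG00000198728, chromosome 10 from 102107560 to 102120453, minus strand), which dimerizes and holds enhancer and promoter together, had 58.9, 57.7 and 37.6 FPKM in S34F and 61.9, 65.4 and 46.3 FPKM in WT. LMO2 (ENSG00000135363, chromosome 11 from 33858576 to 33892289, minus strand), the LIM-only bridge between TAL1, GATA1 and LDB1, had 20.3, 19.2 and 16.0 FPKM in S34F and 22.4, 21.5 and 15.6 FPKM in WT. For both genes the libraries numbered 3 were the lowest of their groups, and the groups overlapped. The means of LDB1 were 51.4 ± 11.95 FPKM in S34F and 57.9 ± 10.2 FPKM in WT, and those of LMO2 were 18.5 ± 2.24 and 19.8 ± 3.70 FPKM (SD, n = 3 each).

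ZFPM1 (ENSG00000179588, chromosome 16 from 88453317 to 88537016, plus strand), the GATA1 cofactor FOG1, had 4.06, 3.71 and 4.09 FPKM in S34F and 3.70, 3.49 and 3.37 FPKM in WT. Every S34F library was above every WT library, although S34F replicate 2 (3.705 FPKM) and WT replicate 1 (3.702 FPKM) were all but level. The means were 3.95 ± 0.216 FPKM in S34F and 3.52 ± 0.170 FPKM in WT (SD, n = 3 each).

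Of the repressors, GFI1B was expressed and BCL11A was not detectable. GFI1B (ENSG00000165702, chromosome 9 from 132944000 to 132991687, plus strand), a zinc finger repressor of red cell and platelet development that recruits the demethylase LSD1, had 13.8, 14.2 and 8.23 FPKM in S34F and 12.4, 11.7 and 9.23 FPKM in WT. The third replicate was again the lowest of each group, the groups overlapped, and the means were 12.1 ± 3.33 FPKM in S34F and 11.1 ± 1.66 FPKM in WT (SD, n = 3 each). BCL11A (ENSG00000119866, chromosome 2 from 60450520 to 60555154, minus strand), the repressor of fetal γ-globin in adult red cells, was listed at 0.00574, 0.00340 and 0 FPKM in S34F and at 0.00152, 0 and 0 FPKM in WT. All 6 values lay under 0.0193 FPKM, which 3 fragments over its longest transcript would give in the shallowest library, so it was not detectable at this depth. That limit covers counting error only. In the same libraries the γ-globin genes HBG1 and HBG2 had 1607 to 1965 and 1874 to 2450 FPKM, and the adult β-globin gene HBB had 0.369 to 1.21 FPKM.

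MYB (ENSG00000118513, chromosome 6 from 135181315 to 135219173, plus strand), the progenitor factor, had 7.92, 8.67 and 4.64 FPKM in S34F and 9.85, 8.88 and 7.11 FPKM in WT. S34F replicate 3 was the lowest of the 6 and WT replicate 1 the highest, and the groups overlapped. The means were 7.08 ± 2.14 FPKM in S34F and 8.61 ± 1.39 FPKM in WT (SD, n = 3 each), and the highest library was 2.12 times the lowest, the widest span among the 9 detected factors.

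By FPKM the factors fell in the order GATA1, KLF1, NFE2, LDB1, TAL1, LMO2, GFI1B, MYB, ZFPM1 and BCL11A. The ranges over the 6 libraries did not overlap between KLF1 and NFE2, NFE2 and LDB1, LDB1 and TAL1, LMO2 and GFI1B, MYB and ZFPM1, or ZFPM1 and BCL11A. They overlapped between GATA1 and KLF1, although GATA1 was the higher in 6 of 6 libraries, and between GFI1B and MYB, with GFI1B the higher in 6 of 6. TAL1 and LMO2 did not differ beyond their spread, with TAL1 the higher in 4 of 6 libraries. Within a library the 10 factors summed to 585, 575 and 432 FPKM in S34F and 563, 564 and 497 FPKM in WT, which was 0.129 to 0.171% of all FPKM. The libraries numbered 3 had the lowest sums of their groups. The sums did not differ between the groups beyond the replicate spread, at 530.4 ± 85.7 FPKM in S34F and 541 ± 38.1 FPKM in WT (SD, n = 3 each, exact permutation test, two-sided, p = 1, smallest possible p = 0.1).

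The comparison of S34F with WT asks whether the mutant form changes the transcript levels of these factors. None of the 9 factors tested passed an unadjusted p of 0.05, where 2.39% of the 10942 genes tested did (262 genes, limma on log2(FPKM + 1) over genes that averaged 1 FPKM or more). With a fold above 1.5 as well, 0.585% of genes (64) passed and 0 of the factors. Over all of these genes, 0 had an adjusted p under 0.05. In S34F, 3 of the 9 factors were on the higher side and 6 on the lower side, with a median log2 fold change of -0.04, and over all genes tested 5973 were higher, 4969 were lower and the median was 0.01. BCL11A stayed out of the test because its mean was under 1 FPKM.

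The intervals of the differences, from the unpaired fit, show what the libraries could resolve. All log2 fold changes are on the log2(FPKM + 1) scale, where the change of low genes is understated. GATA1 had a log2 fold change of -0.04 (standard error 0.16, 95% interval -0.42 to 0.33, limma unadjusted p = 0.786, exact permutation p = 1, two-sided), so a ratio between 0.748 and 1.26 was within the interval. KLF1 had 0.05 (standard error 0.12, 95% interval -0.24 to 0.33, limma unadjusted p = 0.706, exact permutation p = 0.7). NFE2 had -0.04 (95% interval -0.34 to 0.25, exact permutation p = 0.6) and TAL1 had -0.13 (95% interval -0.58 to 0.31, exact permutation p = 0.7). The activators thus lay within less than 1 standard error of 0.

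Among the bridging proteins, LDB1 had a log2 fold change of -0.18 (95% interval -0.69 to 0.33, exact permutation p = 0.5) and LMO2 had -0.09 (95% interval -0.48 to 0.31, exact permutation p = 0.6). ZFPM1 had 0.13 (standard error 0.10, 95% interval -0.10 to 0.36, limma unadjusted p = 0.222, exact permutation p = 0.1, two-sided, the smallest that 3 against 3 allows). It was the only factor of the 9 whose groups did not overlap, which 7.38% of all genes tested also showed, and it was higher in S34F in 3 of 3 pairs of same-numbered libraries. The repressor GFI1B had 0.08 (95% interval -0.44 to 0.60, exact permutation p = 0.6). MYB had the largest fitted difference of the 9, at -0.28 (standard error 0.23, 95% interval -0.82 to 0.26, limma unadjusted p = 0.259, exact permutation p = 0.4). That place rested on S34F replicate 3. Without that library MYB had -0.04, against 0.32 for GFI1B and 0.16 for KLF1, and without both libraries numbered 3 MYB had -0.16, against -0.23 for TAL1. MYB, LDB1 and NFE2 were each lower in S34F in 3 of 3 pairs. The share of all genes with the same direction in 3 of 3 pairs was not counted. The pair counts of these factors and of ZFPM1 are therefore a description only, and whether same-numbered libraries are pairs was not settled. The adjusted p from limma was 1.00 for each of the 9, and the exact permutation p ran from 0.1 for ZFPM1 to 1 for GATA1.

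With the replicate number as a block, 4.05% of genes had an unadjusted p under 0.05 and 0 of the 9 factors did. The lowest unadjusted p values among them, from limma with the replicate block, were 0.0792 for MYB and 0.0950 for LDB1. Without S34F replicate 3, which was the lowest S34F library for 8 of the 9 factors, KLF1 had a log2 fold change of 0.16 (standard error 0.06, limma, adjusted p = 0.454, unadjusted p = 0.0443). The share of all genes with an unadjusted p under 0.05 was then 10.6%, with 5.34% on the higher side in S34F. Without both libraries numbered 3, KLF1 had 0.16 (limma, adjusted p = 0.202, unadjusted p = 0.0158) and GFI1B had 0.20 (limma, adjusted p = 0.221, unadjusted p = 0.0214), on a background of 16.9% of all genes, 8.29% on the higher side. GATA1 was then at 0.09 (adjusted p = 0.356 from limma), on the other side of 0 from its value over all libraries. The calls of KLF1 and GFI1B therefore exist only without the libraries numbered 3, and in those fits 10.6% and 16.9% of all genes also had an unadjusted p under 0.05.

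The libraries numbered 3 had lower levels of most factors than the other libraries of their group. On log2(FPKM + 1), S34F replicate 3 was below the mean of S34F replicates 1 and 2 by a median of 0.35 over the 9 factors (median difference -0.35), and WT replicate 3 likewise (median difference -0.35), whereas the medians over all genes tested were 0.00 in S34F and -0.06 in WT. Replicate 3 was the lowest of its group in both groups for 7 of the 9 factors, and for 29.4% of all genes tested. In S34F alone it was the lowest for 8 of 9 against 43.5% of all genes, and in WT alone for 8 of 9 against 50.2%.

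MYB and GFI1B showed the widest gaps in S34F, at -0.72 and -0.70, with -0.35 for each in WT. LDB1 was low in both libraries numbered 3, at -0.62 in S34F and -0.45 in WT. GATA1 was at -0.52 in S34F and -0.13 in WT, and KLF1 was at -0.35 in S34F and 0.00 in WT. TAL1 (-0.15 and -0.44) and LMO2 (-0.29 and -0.47) had the wider gap in WT, and NFE2 had -0.28 and -0.22. ZFPM1 was the exception in S34F, at 0.06, with -0.07 in WT. These gaps have 1 library on one side and carry no test, and the part of handling, depth or culture in them was not tested. The approximate depth was 24.8 M fragments in S34F replicate 3 and 24.7 in WT replicate 3, within the range of the other libraries.

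Each factor has relatives that bind like sequences or can take its place, and their levels show which family member these libraries held. The relatives were listed after the values of the table had been seen. GATA2, which precedes GATA1 in progenitors and is replaced by it, had 23.8, 23.3 and 16.1 FPKM in S34F and 22.4, 20.5 and 18.1 FPKM in WT. The libraries numbered 3 were the lowest of each group, as for GATA1. The ratio of GATA1 to GATA2 within a library, which does not depend on how the library was scaled, was 8.43, 8.82 and 8.83 in S34F and 8.60, 9.27 and 9.67 in WT. The ratio was lower in S34F in 3 of 3 pairs of same-numbered libraries, a pairing that the test given next leaves out. The means were 8.69 ± 0.225 in S34F and 9.18 ± 0.541 in WT (SD, n = 3 each), the groups overlapped, and the difference did not exceed the replicate spread (exact permutation test of the log2 ratio, two-sided, p = 0.3, smallest possible p = 0.1). GATA3, GATA4, GATA5 and GATA6 were each at 0.266 FPKM or less in every library.

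LYL1, the close relative of TAL1, had 31.6 to 44.9 FPKM and was higher than TAL1 in 6 of 6 libraries, with a TAL1 to LYL1 ratio of 0.435 to 0.698. TAL2 had 0.546 to 0.950 FPKM. MYBL2, the cell cycle member of the MYB family, had 88.7 to 120.6 FPKM and was likewise above MYB in 6 of 6 libraries, and MYB was 0.0523 to 0.0900 times its level. MYBL1 had 0.0685 to 0.147 FPKM. TAL1 and MYB were thus not the most abundant members of their families here.

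GATA1, NFE2, LMO2, ZFPM1, LDB1 and GFI1B were above each of their relatives listed here in 6 of 6 libraries, and no relative of KLF1 or BCL11A was in this list. NFE2 exceeded NFE2L1, a broadly expressed relative at 25.5 to 34.2 FPKM, by 2.31 to 3.85 times, and NFE2L2 (NRF2, the regulator of the oxidative stress response) and NFE2L3 were lower, at 3.63 to 5.29 and 2.13 to 3.56 FPKM. LMO2 was 1.83 to 4.54 times LMO4, at 4.93 to 8.73 FPKM, and LMO3 had 0.132 to 0.344 FPKM. ZFPM1 was 1.86 to 2.89 times ZFPM2 (FOG2), at 1.16 to 1.99 FPKM. LDB2 was listed at 0 in 4 libraries and at no more than 0.0106 FPKM in the others, and GFI1, the myeloid and lymphoid counterpart of GFI1B, had 0.0147 to 0.123 FPKM. None of the relatives that averaged 1 FPKM or more had an unadjusted p under 0.05 from limma between S34F and WT, and GATA2, LYL1 and MYBL2 had log2 fold changes of 0.03, -0.04 and 0.02.

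The partners of the factors were read as lists. Of 15 LDB1 complex partners (E proteins, ID proteins, LMO4, LYL1, GATA2, E2F4 and SSBP and ETO family proteins), all were in the table, 13 were tested, 8 were higher in S34F, 5 were lower and 0 were called, with a median log2 fold change of 0.01. The highest were ID1, an inhibitor of E proteins, at 23.9 to 53.0 FPKM, LYL1, and E2F4 at 24.4 to 30.4 FPKM. Of the 8 NF-E2 partners and relatives, 7 were tested and 0 were called, with a median of 0.01, and the small MAF proteins MAFG and MAFK, with which NFE2 forms NF-E2, had 7.58 to 12.3 and 6.79 to 8.31 FPKM. Of 15 KLF and SP relatives of KLF1 in the table (of 16 listed), 10 were tested and 0 were called, with a median of 0.06. KLF16 at 30.3 to 39.1 FPKM was the highest of them and remained under KLF1, whose lowest library had 122 FPKM, and KLF13 and KLF10 followed at 10.5 to 14.6 and 4.16 to 14.4 FPKM. With the replicate block, where 4.05% of all genes had an unadjusted p under 0.05, 1 of these 10, KLF10, was called higher. Among 32 corepressor and coactivator partners, 30 were tested and 0 were called, with a median of 0.01, and TRIM28, the NuRD subunit MTA2 and the deacetylase HDAC1 were the highest, at 97.1 to 125, 57.8 to 71.9 and 40.2 to 49.1 FPKM. With the replicate block 1 of these 30, the deacetylase HDAC3, was called higher in S34F, beside the same 4.05% of all genes. Without both libraries numbered 3, 2 of 12 LDB1 complex partners tested, 2 of 10 KLF and SP relatives and 3 of 30 corepressor and coactivator partners were called. Of all genes, 16.9% then had an unadjusted p under 0.05.

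Transcription factors of other blood lineages were mostly low. Of 27 in the table (of 30 listed), 21 averaged less than 1 FPKM, and the list had a median of 0.174 FPKM, against 19.9 FPKM over the 10 erythroid factors. As the erythroid factors were chosen with their levels known, the gap between these medians is a description only. The 3 highest were CEBPB at 9.13 to 17.2 FPKM, HHEX at 8.53 to 18.5 FPKM and SPI1 (PU.1), the myeloid and lymphoid factor that binds and opposes GATA1, at 7.64 to 12.4 FPKM. GATA1 exceeded SPI1 in every library. Of the 6 tested, 1 was higher and 5 lower in S34F, the median log2 fold change was -0.15 and 0 were called.

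Genes known as targets of the factors were followed through the same fit. Of 48 textbook erythroid target genes, 45 were tested, 33 were higher in S34F and 12 were lower, with a median log2 fold change of 0.06, 0 called higher and 1 called lower. Over all genes tested, 0.823% had an unadjusted p under 0.05 on the higher side and 1.57% on the lower side, without a limit on the fold. The gene called lower was PIM1, a kinase gene that cytokine signals induce through STAT5, with 98.7, 94.9 and 80.4 FPKM in S34F and 136, 139.9 and 105 FPKM in WT. All S34F libraries were below all WT libraries. PIM1 had a log2 fold change of -0.47 (standard error 0.15, limma, adjusted p = 1.00, unadjusted p = 0.0167, exact permutation p = 0.1). Leaving out WT replicate 1 gave an unadjusted p of 0.0630, and leaving out WT replicate 2 gave 0.0641. The 3 most abundant targets were globin genes, HBE1 at 5058 to 5834 FPKM, HBG2 and HBG1, and none of these was called. The summed FPKM of the 48 targets was 12898 in S34F replicate 3 and 12547 in WT replicate 3. The other 4 libraries had 13701 to 14866, so both libraries numbered 3 lay under all others. That was not particular to targets. In the same order, LDB1 complex partners had 181 and 205 against 236 to 249. Corepressor and coactivator partners had 468 and 458 against 511 to 538. Genes that GATA1 represses had 65.6 and 71.1 against 80.9 to 86.4. The NF-E2 list went the other way (65.2 and 59.98 against 50.9 to 54.5), as did the monocytic and granulocytic list. Whether the targets followed the factors was not tested. Without S34F replicate 3, 6 of the 45 targets were called higher and 3 lower. Of all genes, 10.6% then had an unadjusted p under 0.05 in either direction, with 5.34% on the higher side. Without both libraries numbered 3, 10 targets were called higher and 3 lower. Of all genes, 16.9% then had an unadjusted p under 0.05 in either direction, with 8.29% on the higher side. In both of these fits HBG1, the anion exchanger gene SLC4A1, the pyruvate kinase gene PKLR and the blood group gene RHD were among those called, and ALAD, an enzyme of heme synthesis, and PIM1 were called lower. The other target called lower was GYPB, a glycophorin gene, in the first of these fits and TFRC, the transferrin receptor gene, in the second. These 2 readings were chosen after the data were seen, as were the genes named in them.

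Of 7 genes that GATA1 represses in textbook accounts, 5 were tested and 0 were called, with a median of 0.03. KIT, the stem cell factor receptor, had 0.0267 to 0.132 FPKM, and CD34, the progenitor surface marker, was listed at 0 in 5 libraries and at 0.00873 FPKM in S34F replicate 3. LYL1, GATA2 and HHEX were the highest of this list.

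Markers of other cell types were read beside the comparison. Of the erythroid markers, all of which are also among the 48 targets, 11 were tested and 0 were called, with a median log2 fold change of 0.09. All 11 were on the higher side in S34F, as were 5973 of the 10942 genes tested. Without S34F replicate 3, 9 of the 11 were on the higher side. Over all genes tested, 0.823% were higher and 1.57% lower with an unadjusted p under 0.05. Of the monocytic and granulocytic markers, 4 were tested and all 4 were lower in S34F, and the 2 called were ITGAM (log2 fold change -0.52, unadjusted p = 0.0148 from limma, exact permutation p = 0.1) and CD33 (-0.33, unadjusted p = 0.0469, exact permutation p = 0.1). The summed FPKM of that list was 47.4 to 76.8 in S34F and 69.0 to 90.1 in WT. The unadjusted p of ITGAM was 0.0525 to 0.0548 without S34F replicate 1, WT replicate 1 or WT replicate 2, and that of CD33 was 0.0698 to 0.141 without S34F replicate 1 or 2 or any 1 of the WT replicates. With no filter on low values the unadjusted p of CD33 was 0.0509. Of the lymphoid markers, 2 were tested and CD3G was called (-0.34, unadjusted p = 0.0381 from limma, exact permutation p = 0.1), with an unadjusted p of 0.0583 to 0.124 without S34F replicate 2 or 3 or WT replicate 1 or 2. CD3D, the other lymphoid marker tested and the highest of the list, had 8.48 to 16.5 FPKM. All its S34F libraries were below all its WT libraries (limma, unadjusted p = 0.0797, exact permutation p = 0.1). The summed FPKM of the lymphoid list was 10.2 to 17.9 in S34F and 19.0 to 20.0 in WT. Most of that sum was CD3D alone, at 8.48 to 14.6 FPKM in S34F and 16.2 to 16.5 FPKM in WT. Of the 10 lymphoid markers in the table, 8 averaged less than 1 FPKM, so the sum does not describe the list as a whole. Of the megakaryocyte and platelet markers, 5 were tested and 0 were called, with GP1BB the highest at 76.5 to 106 FPKM. The part of other cells in the values of the factors was not tested, and in bulk RNA fewer cells of a type and less RNA per cell cannot be told apart.

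The genes whose pattern over the 6 libraries was most like that of a factor were found by the root mean square (RMS) difference of centred log2(FPKM + 1) profiles over the 10942 genes tested. For GATA1 these were MED24 (0.0236), TROAP (0.0240) and SPAG5 (0.0241). For KLF1 they were INTS11 (0.0150), KIF1C (0.0159) and BCL2L12 (0.0163), and for MYB CYB5D1 (0.0269), AL713998 (0.0352) and TMEM141 (0.0505). The other factors were further away. KLF1 was in place 612 and NFE2 in place 615 of the genes nearest to GATA1, and LDB1 in place 38 of those nearest to MYB. The profiles rest on 6 libraries. GATA1 and MYB had their lowest value of each group in the libraries numbered 3, while KLF1 did so in S34F but not in WT.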

How the data were processed

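RNA from 3 S34F and 3 WT samples of SKM-1 was measured by RNA-seq (TRIzol, Illumina X10). The authors deposited 1 table with an FPKM per gene and library. The table is named for raw counts, yet nearly all of its values above 0 are fractional and its headings give FPKM, which is how they were used. The submitters' processing notes name StringTie and edgeR, without versions or roles. The aligner, genome build and annotation are not given in the sources used here. The authors also deposited fold changes, p-values and q-values per gene and annotation terms, which were not used. FPKM carry no counts, so a test on counts could not be run.

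Groups follow the form of U2AF1 in the sample titles. S34F was compared with WT by limma 3.58.1 (R 4.3.3) on log2(FPKM + 1), with a mean-variance trend and Benjamini-Hochberg adjustment over the 10942 genes that averaged 1 FPKM or more, and factors were read from that fit. A member or list gene was called at an unadjusted p under 0.05, and a gene in the count over all genes at that p and a fold above 1.5, on the scale used. Ratios and sums were compared by exact permutation tests. Depth was approximated from the FPKM of 1 fragment in single-exon genes. The limma script was tested on simulated data. Scripts ran in Python 3.11.15 with scipy 1.17.1, pandas 2.3.3, matplotlib 3.10.9 and numpy 2.4.6.

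The members, the gene lists and the tests were chosen with earlier results of these data known, and the family relatives after their values were seen. Genes named are all members, the genes called over all libraries and the 3 highest genes of each list. Of the lymphoid and the megakaryocyte lists only the highest gene was named for its level. Marker genes that were absent against the label and the 3 nearest profiles for GATA1, KLF1 and MYB are also named. Of the genes called only in alternative fits, some are named. Gene positions were taken from GENCODE 29 (GRCh38), where 31002 of the 31142 identifiers were found, and promoter windows from RefSeq.

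A pairing of same-numbered samples was looked for in the correlation, across genes, of the deviations from the group means. It was 0.212, 0.174 and 0.380 for libraries numbered 1, 2 and 3, and the study speaks of pairs. Some libraries with different numbers also exceeded 0.1. These were S34F replicate 2 with WT replicate 1 (0.197) and S34F replicate 1 with WT replicate 2 (0.134). The correlations therefore do not settle whether the numbers are pairs. The fit and tests given are unpaired, and a replicate block was fitted as an alternative. With the block the unadjusted p from limma went from 0.259 to 0.0792 for MYB and from 0.427 to 0.0950 for LDB1. The alternatives were other scalings, filters and pseudocounts, no trend, robust empirical Bayes, removal of hemoglobin, mitochondrial and ribosomal protein genes, the replicate block, each library left out in turn, and both libraries numbered 3 left out. Leaving out both was set up because these libraries were known to stand apart.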

Additional observations from a re-analysis of the deposited data

How the results depend on the processing

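The log2 fold changes of the 9 tested factors were recomputed in 152 alternative fits of a factor. In 137 the direction and the side of the 0.05 threshold were those of the values over all libraries, in 12 the sign changed and in 3 the p fell under 0.05. All of these 15 came from fits that left out libraries. With 1 library left out, GATA1 ran from -0.139 to 0.128, KLF1 from -0.0247 to 0.163, TAL1 from -0.280 to 0.0535, NFE2 from -0.117 to 0.0511, GFI1B from -0.0416 to 0.316, LMO2 from -0.243 to 0.00912 and LDB1 from -0.331 to 0.0257, all of which changed sign. The sign changed without S34F replicate 3 for GATA1, NFE2, LDB1 and LMO2, without S34F replicate 1 for KLF1 and GFI1B, without S34F replicate 2 or WT replicate 3 for GFI1B, without WT replicate 1 for NFE2 and LMO2, and without WT replicate 2 for TAL1. MYB, which ran from -0.428 to -0.0397 (the latter without S34F replicate 3), and ZFPM1, from 0.107 to 0.168, did not change sign in the fits run. Without both libraries numbered 3, GATA1 had 0.0854. The cause was not tested.

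The number of factors called, 0 over all libraries, ran from 0 to 1 when 1 library was left out and was 2 without both libraries numbered 3. The number of genes called with a fold above 1.5 was 64, and it was 22 with a mean of at least 5 FPKM, 122 with a pseudocount of 0.1, 67 to 180 with 1 library left out and 186 without both libraries numbered 3. The summed FPKM of the factors, S34F minus WT, was -10.7, ran from -38.0 to 38.7 with 1 library left out (38.7 without S34F replicate 3, 0.0851 leaving out WT replicate 1, 0.607 leaving out WT replicate 2), and was 16.7 without both libraries numbered 3. With the replicate block, 443 genes against 262 had an unadjusted p under 0.05 and 0 factors did, and of the gene lists the block added KLF10 and HDAC3 and took away no call. Without a filter 904 genes had an unadjusted p under 0.05, with a mean of at least 5 FPKM 113, leaving out S34F replicate 3 1159, leaving out WT replicate 1 165 and without both libraries numbered 3 1847. At an adjusted p under 0.05 there were 1 without S34F replicate 1, 3 without WT replicate 3 and 8 without both libraries numbered 3. Depth limits BCL11A, which lay under 3 fragments in every library.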
